A study of Mus musculus with 30 samples.

Results

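Macrophages sorted straight from mouse tumours were compared between their MHC-IIlo and MHC-IIhi subsets in 10 RNA-seq libraries out of the 30 of the study, 5 of each subset. The 10 are those whose group the labels give as freshly sorted, and no measured value entered that choice. All came from wild-type (WT) C57BL/6 mice with 3LL-R tumours under the skin, 3LL-R being a line of Lewis lung carcinoma, and the cell type is given as tumour-associated macrophage. For each library 30000 cells of a subset were sorted directly into lysis buffer. The other 20 libraries were made from 250000 cells kept for 24 h in culture, 10 without added lactate (0 mM) and 10 with 20 mM lactate. Those without lactate enter 1 comparison below. Fits of all 30 libraries, given as an alternative, hold the lactate-treated ones too. The labels call the samples biological replicates and do not say whether each came from 1 animal or a pool, and they give no age. Adjusted p-values below therefore weigh a subset difference against the spread between these samples, which may in part be technical. A single transplanted tumour line is a limit of the model, as is a subset defined by 1 surface molecule.

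MHC class II molecules are heterodimers that hold peptides from ingested proteins and show them to CD4 T cells. The α and β chains assemble with the invariant chain (Cd74), the chaperone H2-DM exchanges the invariant chain's fragment for peptide, and H2-DO restrains H2-DM. Transcription of these genes needs CIITA, a coactivator without DNA-binding activity of its own that sits on the RFX complex at the X box and on NF-Y at the Y box of their promoters. In tumours, macrophages with little surface MHC class II have been described as lying in poorly oxygenated regions and as remodelling vessels and matrix, and those with much of it as closer to inflammatory macrophages and to dendritic cells, the other professional antigen-presenting cells.

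The promoter sequences below are marked for exact spellings of X box and Y box elements, since the products of the class II genes define the subsets. RefSeq windows (GRCm38.p6) were found for 14 of the 19 genes of a class II list, and the bases before the gene start were searched on both strands. The X box core was spelled GCAACNGAT and the inverted CCAAT of the Y box ATTGG, and the motifs do not overlap. An exact X box core lay in 115 of 32851 promoters of the same length (0.35%), ATTGG in 33.8% and both in 0.125%. Of the 14 windows 2 held the exact X box core (H2-Eb1 and H2-Eb2), and 11 held ATTGG (78.6%). The 11 include Rfx5, Rfxank and Lgmn, which are not genes of class II chains. Each stretch has 67 bases in the direction of transcription and is aligned on ATTGG, and capitals mark ATTGG and, where present, the exact X box core.
H2-Eb1, chr17:34305761-34305827, plus strand: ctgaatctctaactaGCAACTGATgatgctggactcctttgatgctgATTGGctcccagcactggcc
H2-Eb2, chr17:34325528-34325594, plus strand: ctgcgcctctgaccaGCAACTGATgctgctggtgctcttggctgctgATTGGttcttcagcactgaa
H2-Aa, chr17:34287852-34287918, minus strand: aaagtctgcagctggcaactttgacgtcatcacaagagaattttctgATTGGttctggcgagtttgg
H2-DMb1, chr17:34153083-34153149, plus strand: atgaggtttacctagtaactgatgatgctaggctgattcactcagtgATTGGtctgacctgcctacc
H2-Ob, chr17:34238801-34238867, plus strand: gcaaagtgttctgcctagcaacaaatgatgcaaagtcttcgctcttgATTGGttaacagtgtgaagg
In H2-Eb1 and H2-Eb2 the exact X box core starts at the same distance ahead of ATTGG. At the corresponding place H2-Aa, H2-DMb1 and H2-Ob have other letters, and the search for exact letters says nothing about binding there. A match is a description of the sequence and not evidence of a bound factor.

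The libraries held 16913250 to 21407666 counts assigned to genes in MHC-IIhi and 17838799 to 20999665 in MHC-IIlo, and 0.78% to 1.31% of counts were mitochondrial. Levels are CPM, the counts scaled by TMM to a common library size, changes are log2 fold changes ± SE of MHC-IIlo over MHC-IIhi from edgeR's quasi-likelihood test, and n = 5 libraries a subset throughout. Of the variance, 46.4% lay on a first principal component that parted the subsets. A second, with 18.8%, parted libraries 4 and 5 from libraries 2 and 3 within both subsets. Library 2 of MHC-IIhi stood farthest from MHC-IIlo on the first component (-46.3 against -35.0 to -27.7 for the other 4) and was the lowest of its 5 in 48.4% of the genes that passed as higher in MHC-IIlo, against 23.7% of all genes tested. Libraries 2 and 3 of MHC-IIlo were the lowest of their 5 in 37.4% and 39.1% of those genes. The macrophage markers Csf1r, the receptor for the growth factor CSF1 (1370 to 1551 CPM in MHC-IIhi and 1115 to 1381 CPM in MHC-IIlo), and Lyz2, lysozyme (14100 to 16553 CPM and 14288 to 15791 CPM), were abundant in all 10 libraries. As these are bulk samples, fewer cells of a type and less RNA per cell cannot be told apart.

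The class II genes check the sort. H2-Ab1 (ENSMUSG00000073421, chromosome 17, 34263209 to 34269418, GRCm38), the β chain of I-A, was at 4484, 5465, 4984, 5362 and 4460 CPM in MHC-IIhi libraries 1 to 5 and at 68.3, 127, 118, 83.3 and 55.5 CPM in MHC-IIlo libraries 1 to 5. H2-Aa (chromosome 17, 34282744 to 34287827), its α chain, was at 3786, 4430, 4200, 4477 and 3931 CPM against 43, 101, 86.9, 44 and 36.4 CPM. The highest MHC-IIlo library was far below the lowest MHC-IIhi library for both chains, and MHC-IIlo libraries 2 and 3 kept the most of each. The falls were -5.77 ± 0.24 for H2-Ab1 (adjusted p = 5.42e-09) and -6.06 ± 0.31 for H2-Aa (adjusted p = 4.10e-08). H2-Eb1 (chromosome 17, 34305877 to 34316199), the I-E β chain, fell by the same order, from 3528 ± 348 to 36.4 ± 19.8 CPM (mean ± SD, -6.60 ± 0.37). H2-Eb2, whose promoter held both motifs, had too few reads for the test, with 14, 6, 22, 12 and 15 counts in MHC-IIhi and 1, 0, 0, 0 and 0 in MHC-IIlo.

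The invariant chain Cd74 (chromosome 18, 60803848 to 60812646) was at 9483, 11453, 11355, 12026 and 10488 CPM in MHC-IIhi and 479, 757, 624, 477 and 354 CPM in MHC-IIlo (-4.35 ± 0.20, adjusted p = 1.19e-08). Although its fall was smaller than those of the α and β chains, the groups did not overlap. Ciita (chromosome 16, 10488178 to 10527564), the coactivator, was at 211, 289, 180.4, 170.3 and 176 CPM against 3.03, 8.98, 9.32, 4.4 and 2.23 CPM (-5.18 ± 0.35, adjusted p = 4.19e-07). For Ciita, H2-Ab1 and Cd74 alike, library 5 was the lowest of the MHC-IIlo libraries and library 2 or 3 the highest. The 3 subunits of the RFX complex, which binds the X box, did not pass the test. Rfx5 was at 12.6, 16.5, 16, 11.3 and 12.5 CPM and 8.76, 11.1, 16.1, 9.9 and 11.3 CPM (-0.27 ± 0.17, adjusted p = 0.275), Rfxank had a difference of -0.04 ± 0.11 and Rfxap of -0.01 ± 0.07. Their libraries overlapped between the subsets.

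**Figure D1:**
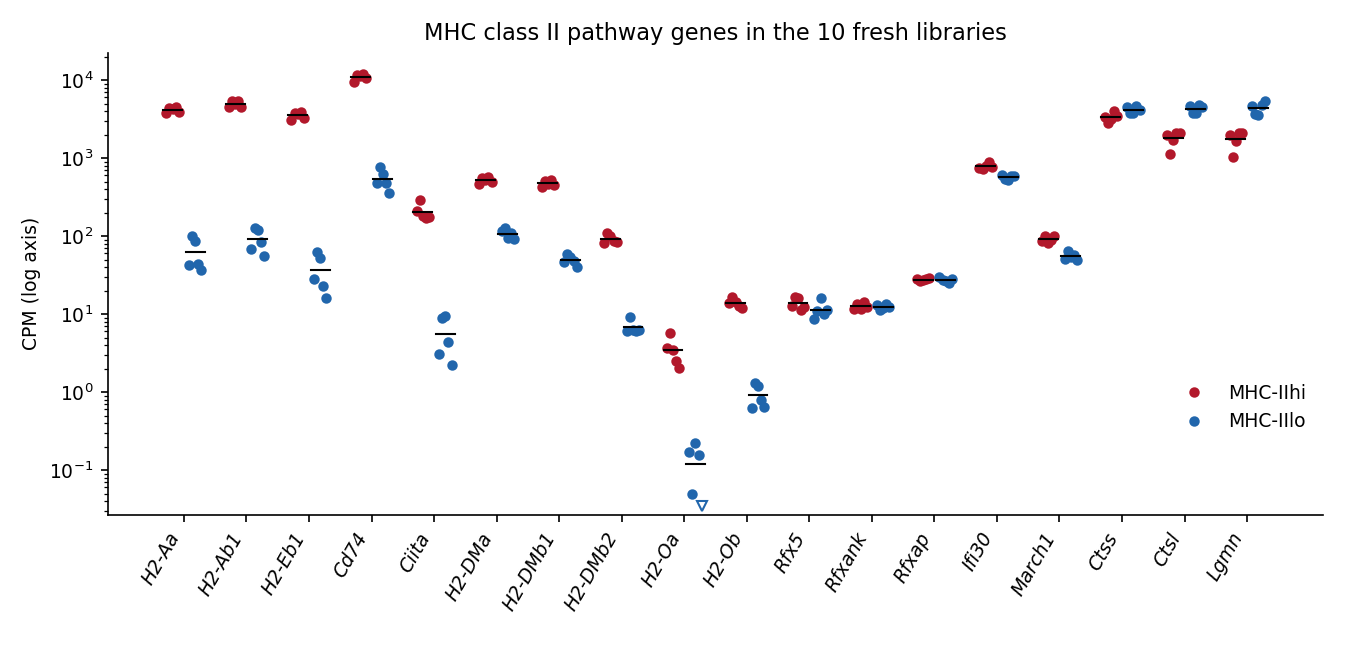
CPM on a log axis of 18 MHC class II pathway genes in each fresh library, red for the 5 MHC-IIhi and blue for the 5 MHC-IIlo libraries, with a black line at the mean and an open triangle at the bottom for a library at 0 (1 MHC-IIlo library for H2-Oa). The chains, Cd74, Ciita, H2-DM and H2-DO genes separate the subsets, the RFX subunits Rfx5, Rfxank and Rfxap overlap, and the proteases Ctsl and Lgmn lie higher in MHC-IIlo.

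The chaperone genes fell with the chains. H2-DMa dropped from 525.7 ± 45.8 to 107 ± 14.8 CPM (-2.29 ± 0.10), H2-DMb1 from 473 ± 41.7 to 49.4 ± 6.93 CPM (-3.26 ± 0.11) and H2-DMb2 from 92.6 ± 12 to 6.74 ± 1.4 CPM (-3.78 ± 0.14). H2-Ob, a chain of H2-DO, went from 14 ± 1.82 to 0.911 ± 0.317 CPM. The other chain, H2-Oa, was at 2.05 to 5.8 CPM in MHC-IIhi and 0 to 0.224 CPM in MHC-IIlo. The lysosomal genes of the pathway moved differently. Ctsl, cathepsin L, rose from 1792 ± 398 to 4303 ± 470.4 CPM (1.26 ± 0.15) and Lgmn, the asparagine endopeptidase, from 1768 ± 439 to 4407 ± 818 CPM (1.32 ± 0.19). Ctss, cathepsin S, which trims the invariant chain, passed narrowly (0.30 ± 0.11, adjusted p = 0.0497) and ended above the threshold in 13 of 19 alternatives, among them those on the deposited FPKM table, where the difference was -0.38. There Ctss had only 2 distinct values in the 10 fresh libraries. Of the 18 tested class II pathway genes, 12 were lower and 3 higher (median log2 fold change -2.78, against -0.0020 over all genes).

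Across the genome 3737 of 12787 tested genes passed at an adjusted p under 0.05 (29.2%), 1790 higher in MHC-IIlo (14%) and 1947 lower (15.2%). The counts of each gene list are to be read beside these shares. The largest folds were mostly falls. Past 2-fold there were 381 higher and 417 lower genes, past 4-fold 38 and 152, and past 8-fold 2 and 67. Groups did not overlap in CPM for 2805 genes (21.9%), 1303 genes that stood higher (10.2%) and 1502 that stood lower (11.7%).

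The largest rises with at least 5 average log2 CPM and no overlap were led by Cd163, the receptor that takes up haptoglobin-bound haemoglobin. Cd163 (ENSMUSG00000008845, chromosome 6, 124304656 to 124330527) was at 111, 61.4, 85.2, 105 and 133 CPM in MHC-IIhi and 444, 475, 474, 728 and 701 CPM in MHC-IIlo (2.51 ± 0.21, adjusted p = 2.74e-06). Next came Ppbp, a CXC chemokine best known from platelets, at 358, 90.3, 285, 286 and 309.7 CPM against 1343, 771, 978, 1551 and 1456 CPM (2.20 ± 0.31). The lowest MHC-IIhi value of both genes was that of library 2. Cyp26b1, which breaks down retinoic acid, rose by 2.06, the metalloproteinase Mmp27 by 1.97, the membrane protein Pmp22 by 1.97 and the sialic acid lyase Npl by 1.94. The remaining 6 were the chemokines Ccl24 (1.89) and Ccl8 (1.87), carbonyl reductase Cbr2 (1.85), coagulation factor F13a1 (1.84), Rcn3 (1.84) and Ms4a7 (1.82).

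Under the same limits of level and overlap, and passing over antigen receptor genes, Ccl17 had the largest fall. It encodes a chemokine that attracts CCR4-bearing T cells (ENSMUSG00000031780, chromosome 8, 94810453 to 94812035). Ccl17 was at 191, 200.1, 188, 176 and 110.4 CPM in MHC-IIhi and at 2.12, 2.13, 0.896, 1.05 and 0 CPM in MHC-IIlo (-7.13 ± 0.39, adjusted p = 7.29e-08). Under these limits the falls that followed outside the class II genes were Il1r2, the decoy receptor for IL-1, Itgax, which encodes CD11c, Irf4 and Ifitm1. Il1r2 (chromosome 1, 40074079 to 40125231) was at 260.2, 237, 176, 237 and 222 CPM against 11.6, 15.9, 9.45, 12.1 and 14 CPM (-4.16 ± 0.15). Itgax (chromosome 7, 128129547 to 128150656) was at 605, 712, 623, 655 and 600.3 CPM against 72.9, 97.3, 80.8, 81.1 and 68.3 CPM (-3.00 ± 0.10), and Irf4 (chromosome 13, 30749226 to 30766927) at 57.8, 63, 52.1, 55.9 and 60.8 CPM against 7.96, 6.55, 6.5, 9.95 and 5.63 CPM (-2.99 ± 0.14). In each of these genes every MHC-IIlo library lay far below every MHC-IIhi library. Ifitm1, an interferon-induced membrane protein, fell by 2.74 on the log2 scale.

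**Figure D2:**
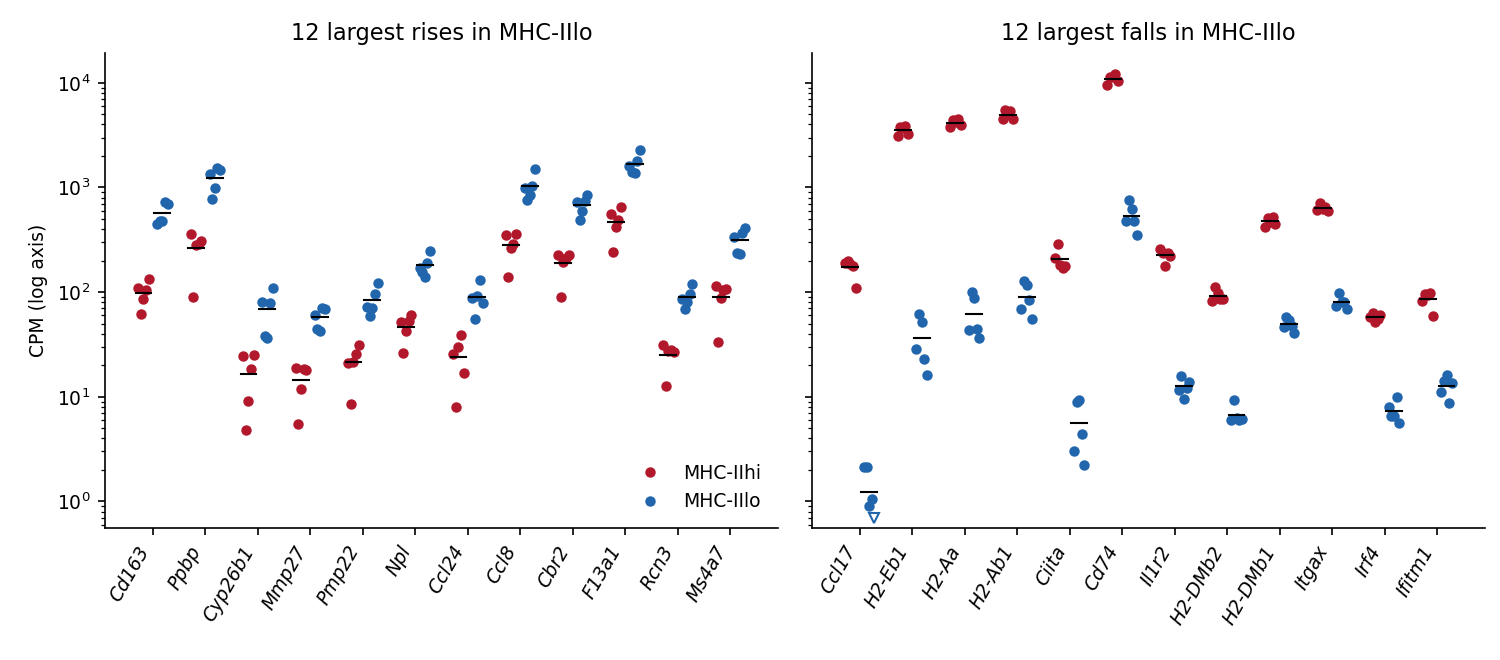
CPM on a log axis of the 12 largest rises (left) and 12 largest falls (right) in MHC-IIlo among genes with at least 5 average log2 CPM and no overlap, red for the 5 MHC-IIhi and blue for the 5 MHC-IIlo libraries, with a black line at the mean and an open triangle for the MHC-IIlo library of Ccl17 at 0. The rises span log2 fold changes of 1.82 to 2.51 and the falls -2.74 to -7.13, and MHC-IIhi library 2 is the lowest red point of each rise.

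MHC class I genes moved little and in both directions. Of 22 tested, 7 were lower and 3 higher (median -0.09). With all 30 libraries in the fit 2 were lower and 1 higher, and DESeq2 and limma voom called 5 higher. The immunoproteasome subunit Psmb8 fell from 184 ± 21.2 to 118 ± 6.42 CPM (-0.64 ± 0.08) and the peptide transporter Tap1 from 159 ± 15.5 to 106 ± 7.25 CPM (-0.59 ± 0.08). B2m, the light chain, was higher (0.52 ± 0.12) but did not pass on the deposited FPKM table (adjusted p of 0.0961 to 0.153). Reads of the near-identical H2-Q genes may have been split between copies, so H2-Q4 (0.32) and H2-Q6 (-0.73) are uncertain, and neither passed when all 30 libraries were fitted (adjusted p = 0.189 and 0.0612).

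Among costimulatory and checkpoint genes 3 of 19 were lower and 5 higher (42.1% passed, against 29.2% of all genes). Pdcd1lg2, which encodes the PD-1 ligand PD-L2, was at 88, 102, 90.5, 109.8 and 84 CPM in MHC-IIhi and 18.9, 22, 17.9, 16.1 and 11.1 CPM in MHC-IIlo (-2.46 ± 0.15, adjusted p = 2.02e-07). The other PD-1 ligand, Cd274, did not pass, at 157, 136, 133, 181 and 201 CPM against 132, 139, 129.7, 176 and 148 CPM (-0.16 ± 0.12). Cd80, a ligand of CD28 and CTLA-4, fell (-0.63 ± 0.10) and its relative Cd86 had a difference of 0.01 ± 0.10 (adjusted p = 0.938). Whether the members of each pair of related ligands differed in their change was not tested. Slamf7, a receptor of the SLAM family, rose from 8.61 ± 2.52 to 17 ± 3.95 CPM (0.98 ± 0.20, 0.63 on the log2(FPKM + 1) scale). The calls of Icosl, Cd40, Cd48, Lgals9 and Vsig4 ended with all 30 libraries in the fit, which left 1 of the 5 higher. Without MHC-IIhi library 1 or MHC-IIlo library 5, 3 were higher.

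Chemokine genes divided between the subsets. Of 19 CC chemokines and receptors 8 were higher and 5 lower in MHC-IIlo. The monocyte attractants Ccl2, Ccl7, Ccl8 and Ccl12 rose together. Ccl2 was at 1215, 395, 892, 1157 and 1147 CPM in MHC-IIhi and 3489, 1862, 2242, 3565 and 3604 CPM in MHC-IIlo (1.62 ± 0.28), and Ccl7 at 798, 253, 609.9, 815 and 749.6 CPM and 2365, 1367, 1614, 2621 and 2625 CPM (1.72 ± 0.29). Library 2 of MHC-IIhi was the lowest for both, and the subsets did not overlap. Ccl12 rose by 1.62, and the eosinophil attractant Ccl24 went from 24 ± 12.1 to 89.4 ± 27.4 CPM. Ccl22, which with Ccl17 binds CCR4, fell from 15.2 ± 8.59 to 1.31 ± 0.698 CPM (-3.51 ± 0.46, -2.08 on the log2(FPKM + 1) scale). Ccr2, the receptor for the CCL2 group, was lower where its ligands were higher, at 1136, 1370, 1044, 1043 and 1209 CPM against 440.3, 592, 449.5, 399 and 289 CPM (-1.42 ± 0.16, adjusted p = 2.94e-05). Ccr7, which guides dendritic cells to lymph nodes, was at 2.03 to 9.66 CPM in MHC-IIhi and 0.159 to 1.39 CPM in MHC-IIlo (-2.68 ± 0.54, -1.37 on the log2(FPKM + 1) scale).

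Of 15 CXC chemokines and receptors 5 were higher and 0 lower by edgeR (33.3% passed, near the 29.2% of all genes). At an unadjusted p under 0.05 there was 1 lower, and DESeq2 called 1 lower, as did edgeR without MHC-IIhi library 1 or 2 or MHC-IIlo library 4. Pf4 (chromosome 5, 90772435 to 90773383), a neighbour of Ppbp, rose from 644 ± 226 to 2241 ± 555 CPM (1.80 ± 0.27). The neutrophil attractants Cxcl3 (1.54 ± 0.30) and Cxcl5 (2.60 ± 0.38) rose, Cxcl5 from 3.11 ± 1.43 to 19.1 ± 8.75 CPM. Cxcl1 and Cxcl2 did not pass (0.84 ± 0.46 and 0.26 ± 0.36). Pf4 and Ppbp are also platelet genes. The other 8 platelet markers (Itga2b, Gp9, Gp1ba, Gp1bb, Gp5, Tubb1, Treml1 and Clec1b) were below 1 CPM in all 10 libraries.

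Of 29 tested receptors for cytokines and growth factors, 12 were lower and 7 higher, or 4 higher with all 30 libraries in the fit. Both chains of the GM-CSF receptor fell, Csf2rb from 611 ± 59.3 to 247 ± 24.7 CPM (-1.31 ± 0.09, adjusted p = 5.65e-07) and Csf2ra from 514 ± 42.8 to 275 ± 10.8 CPM (-0.90 ± 0.07, adjusted p = 1.83e-06). Csf2rb2, which shares much of its sequence with Csf2rb and may share reads, fell by 0.82 on the log2 scale. The CSF1 receptor gene Csf1r did not pass (-0.21 ± 0.08, adjusted p = 0.0674), although every MHC-IIlo library was below the MHC-IIhi library of the same number. Rises were those of Il4ra, the receptor chain for IL-4 and IL-13, at 879, 557, 734, 862 and 935 CPM against 1681, 1315, 1284, 1825 and 2041 CPM (1.04 ± 0.16), Tgfbr2 (1.05 ± 0.13) and Il10rb (0.79 ± 0.11). For these 3 receptors no MHC-IIlo library fell among the MHC-IIhi ones. Flt3, the receptor that dendritic cell precursors depend on, was at 1.54 to 3.94 CPM in MHC-IIhi and 0 to 0.546 CPM in MHC-IIlo.

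C-type lectins bind sugars on microbes and cells, and 12 of 20 tested were lower in MHC-IIlo and 4 higher. The CD301 pair moved in opposite directions. Mgl2 (CD301b) was at 401, 439, 453, 437 and 407 CPM in MHC-IIhi and 81.7, 79.8, 95.2, 86.7 and 117 CPM in MHC-IIlo (-2.21 ± 0.10, adjusted p = 1.65e-08), while Clec10a (CD301a) was at 83.6, 41.1, 76.4, 75.3 and 92.3 CPM and 179, 148, 178, 184 and 250.4 CPM (1.35 ± 0.19, adjusted p = 0.000184). Neither gene overlapped between the subsets. Mgl2 lies at chromosome 11, 70130329 to 70137550 and Clec10a at chromosome 11, 70156197 to 70170834. Mrc1, the mannose receptor CD206, rose from 2970 ± 635 to 7288 ± 1244 CPM (1.30 ± 0.16), but not on the deposited FPKM table (0.19, adjusted p of 0.436 to 0.488). There Mrc1 had only 2 distinct values in the 10 fresh libraries, so that table says little about its difference. Clec4b1 was at 9.27 to 14.3 CPM against 0 to 0.401 CPM, and Klrk1, which encodes NKG2D, at 18 to 24.6 CPM against 0.531 to 1.09 CPM. Cd209a, a relative of DC-SIGN, was at 6.11 to 19.9 CPM against 0.0448 to 1.14 CPM. Clec7a, the β-glucan receptor Dectin-1, fell by 1.44 on the log2 scale.

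Among receptors for microbial products 9 of 22 Toll-like and NOD-like receptor genes were higher and 3 lower (3 and 1 with all 30 libraries in the fit). Tlr7, a sensor of single-stranded RNA, was at 83.3, 59.5, 56.6, 69.8 and 88.5 CPM against 154, 124, 115, 152 and 175 CPM (1.01 ± 0.14), and Ly96, the partner of TLR4, rose by 0.91. Nod2, which senses muramyl dipeptide, fell from 58.6 ± 6.6 to 29.2 ± 2.78 CPM (-1.01 ± 0.09, adjusted p = 7.98e-06). Tlr4 and Cd14 did not pass (-0.02 and -0.31), although for Cd14 every MHC-IIlo library was below the MHC-IIhi library of the same number. Fc receptors bind antibody, and 5 of 7 were higher and 0 lower by edgeR (0 lower at an unadjusted p under 0.05, 2 lower without the filter on low counts, and 1 lower without MHC-IIhi library 2 or any 1 of the MHC-IIlo libraries). Fcgrt, the neonatal receptor that recycles antibody and albumin, was at 285, 113, 247, 262 and 271 CPM against 807, 599.8, 667, 815 and 992 CPM (1.72 ± 0.22) and was the 1 of these that also passed with all 30 libraries in the fit. Fcgr2b, the inhibitory receptor, rose in the counts (0.48 ± 0.11) and fell on the deposited FPKM table (-0.31, adjusted p of 0.022 to 0.0293).

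Complement genes rose in 10 of 17 cases and fell in 2, with Itgax among the latter. The 3 genes of C1q, which binds dead cells and immune complexes, rose together, C1qa from 910.4 ± 249 to 1858 ± 259 CPM (1.03 ± 0.18), C1qb by 0.92 and C1qc by 1.06. C3 was at 99.6, 61.7, 76.5, 81.5 and 84 CPM in MHC-IIhi and 174, 150.2, 141, 156 and 178 CPM in MHC-IIlo (0.99 ± 0.11), with no overlap. The anaphylatoxin receptors C3ar1 (1.1), C5ar1 (0.92) and C5ar2 (1.18) rose as well. The complement receptor chain Itgam did not pass (0.17), while Itgax fell as given above.

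Genes for the uptake of dead cells and modified lipoproteins were higher in 13 of 22 cases and lower in 4 (median 0.62). The TAM receptor tyrosine kinases, which bind dead cells through bridging proteins, divided. Mertk was at 57, 36.5, 45, 63.3 and 63 CPM in MHC-IIhi and 112, 85.9, 102, 117 and 129 CPM in MHC-IIlo (1.04 ± 0.15, adjusted p = 0.000223), and Tyro3 rose by 0.96. Axl (chromosome 7, 25757273 to 25788705) was at 659.7, 843, 714, 744 and 668 CPM against 124, 145, 149, 100.5 and 77.3 CPM (-2.61 ± 0.16, adjusted p = 2.70e-07). Mertk and Axl thus passed in opposite directions, with no overlap of libraries in either, and Mertk had an adjusted p of 0.073 with all 30 libraries in the fit. The bridging protein Gas6 was at 101, 45.5, 89.5, 106 and 128 CPM against 291, 263, 269.9, 328 and 497 CPM (1.81 ± 0.25), and another, Mfge8, fell (-1.07 ± 0.18). The scavenger receptors Stab1 (1.74 ± 0.19) and Cd36 (1.36 ± 0.18) rose, Stab1 from 508 ± 138 to 1700 ± 298 CPM. Olr1, the receptor for oxidised LDL, fell from 6.41 ± 1.31 to 2.33 ± 0.433 CPM (-1.46 ± 0.20, -0.90 on the log2(FPKM + 1) scale).

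Lysosomal genes were higher in 21 of 35 cases and lower in 3. Ctsb, cathepsin B, was at 3944, 2016, 3505, 4120 and 4156 CPM in MHC-IIhi and 9759, 7249, 7960, 10460 and 11820 CPM in MHC-IIlo (1.41 ± 0.20). Ctsk, the collagen-cutting cathepsin K, rose by 1.60, the membrane protein Lamp1 by 0.93, and the cholesterol exporter Npc1 by 0.78 ± 0.10. Tfeb, a transcription factor of lysosomal genes, did not pass (-0.17).

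Iron and haem genes were higher in 16 of 21 cases and lower in 1, in 10 and 0 without MHC-IIlo library 5. With all 30 libraries in the fit 5 were higher. Hmox1, haem oxygenase 1, was at 672, 327, 424, 935 and 1065 CPM in MHC-IIhi and 1394, 1027, 967, 1891 and 2651 CPM in MHC-IIlo (1.21 ± 0.34, adjusted p = 0.0179). Its subsets overlapped, and libraries 4 and 5 were the highest in each. The iron exporter Slc40a1, ferroportin, rose from 6.09 ± 3.56 to 24.5 ± 14.6 CPM (2.00 ± 0.46). Of the ferritin chains Ftl1 rose (0.51) and Fth1 did not pass (0.41).

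Genes of lipid-associated macrophages were higher in 11 of 19 cases and lower in 3. Apoe was at 1764, 699, 1635, 1984 and 1742 CPM against 5281, 3808, 4118, 5497 and 6053 CPM (1.66 ± 0.24), the cholesterol exporter Abca1 rose by 1.68 and the cholesteryl ester hydrolase Nceh1 by 0.98 ± 0.10. Trem2, a receptor that senses lipids, did not pass (0.23 ± 0.10). Lipoprotein lipase Lpl fell (-1.26 ± 0.11, adjusted p of 0.0867 with all 30 libraries in the fit).

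Sterol synthesis and uptake moved in 1 direction, with 19 of 24 genes lower and 0 higher by edgeR (median -0.67, 0 higher at an unadjusted p under 0.05 and 0 higher by DESeq2). These genes turn acetyl-CoA into cholesterol or bring it in, and the transcription factor SREBP-2, encoded by Srebf2, drives them when sterols are scarce. Srebf2 was at 342, 383, 366, 328 and 315 CPM in MHC-IIhi and 201, 228, 239, 194 and 179 CPM in MHC-IIlo (-0.74 ± 0.09, adjusted p = 6.54e-05). Pmvk, a kinase of the mevalonate route, was at 40.6, 38.7, 43.2, 43.9 and 37.7 CPM against 21.5, 25.9, 24.6, 21.5 and 20.1 CPM (-0.84 ± 0.09). Neither gene overlapped between the subsets, and both differences were below 2-fold. Cyp51, a demethylase of the route, had a larger fall (-1.24 ± 0.19). Idi1, Hsd17b7, Ebp, Tm7sf2 and Acat2 did not pass. A sterol element spelled TCACNCCAC lay in 1 of 17 promoter windows of the list (Hmgcs1, 5.88%), against 346 of 32851 of all (1.05%).

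In fatty acid synthesis 3 of 14 genes were lower and 1 higher (28.6% passed, near the 29.2% of all genes). Srebf1 fell by 0.27 on the log2 scale and Scd2, a desaturase, by 0.52, while Fasn, fatty acid synthase, did not pass (-0.27 ± 0.29, adjusted p = 0.555).

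**Figure D3:**
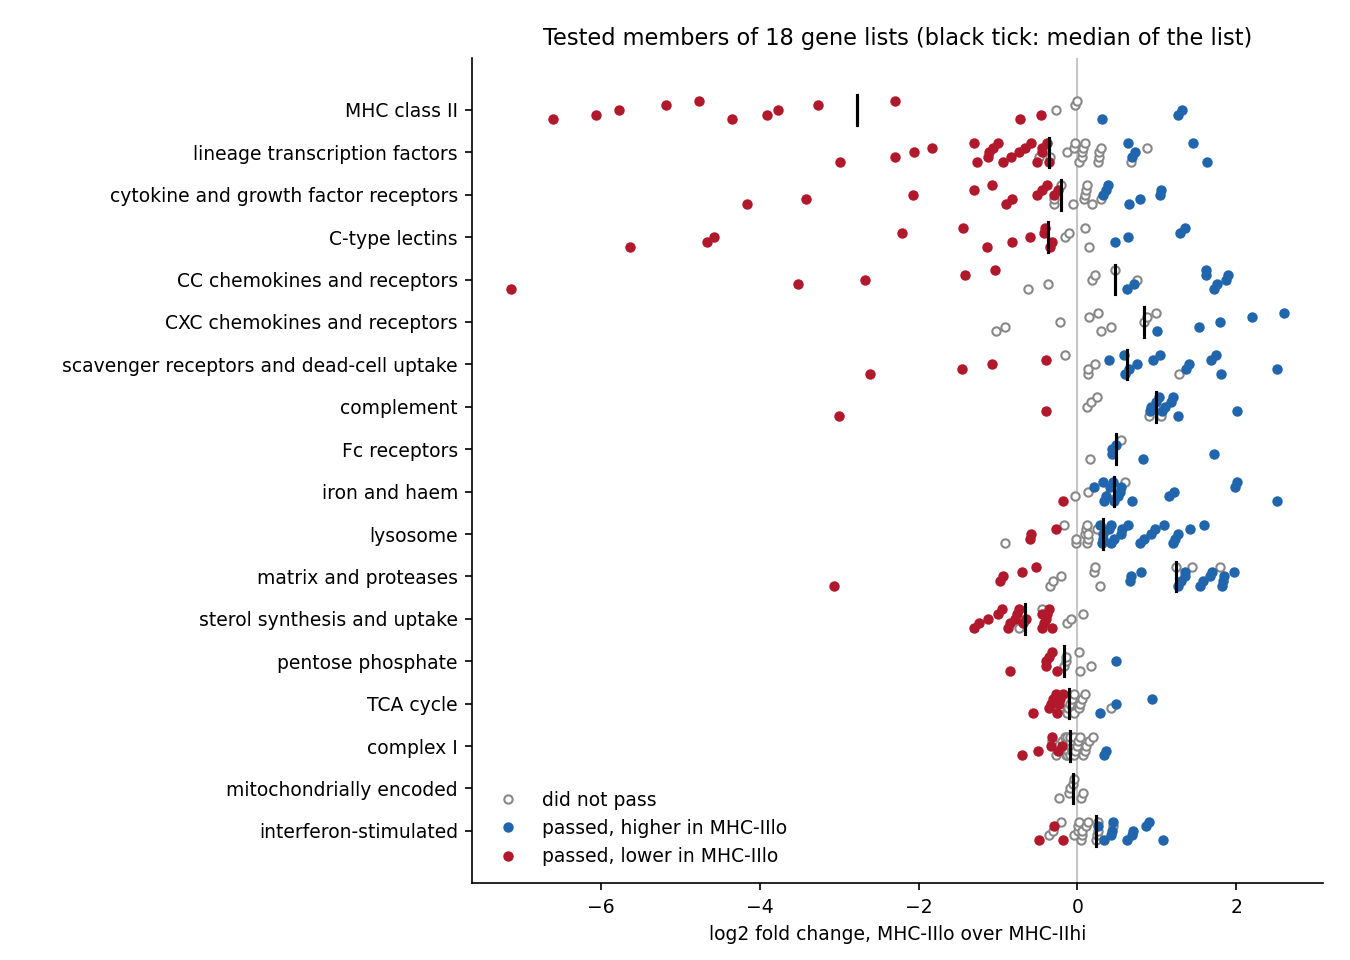
Log2 fold change of MHC-IIlo over MHC-IIhi for each tested member of 18 gene lists, blue where it passed as higher, red where it passed as lower, open where it did not pass, with a black tick at the median of the list. Class II genes reach -6.60, sterol genes lie mostly left of 0 with a median of -0.67, and complement, scavenger and matrix genes lie mostly right of 0.

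Transcription factors of the mononuclear phagocyte lineage were lower in 20 of 41 cases and higher in 5. Irf4, Batf3 and Zbtb46, factors of conventional dendritic cells, all fell, Batf3 from 4.03 ± 0.731 to 0.816 ± 0.387 CPM (-2.30 ± 0.32) and Zbtb46 from 4.18 ± 2.56 to 0.995 ± 0.188 CPM. Irf8, which type 1 dendritic cells need, did not pass (0.06 ± 0.12). Maf, a factor of tissue macrophages, was at 492, 198, 328, 369 and 384 CPM in MHC-IIhi and 1284, 863, 908, 1195 and 1248 CPM in MHC-IIlo (1.63 ± 0.20, adjusted p = 7.24e-05). The subsets did not overlap for Maf. The orphan nuclear receptors Nr4a1 (-1.06 ± 0.31), Nr4a2 (-1.26 ± 0.40) and Nr4a3 (-1.83 ± 0.64) fell, with adjusted p of 0.0225, 0.0306 and 0.0472, and they were highest in libraries 4 and 5 of both subsets. Spi1, which encodes PU.1, fell by 0.36 on the log2 scale and Irf5 by 0.66.

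Secreted growth factors rose in 9 of 25 cases and fell in 1 (40% passed, against 29.2% of all genes). The platelet-derived growth factors divided, Pdgfb falling from 40.6 ± 2.39 to 12.8 ± 2.77 CPM (-1.66 ± 0.13, adjusted p = 1.86e-06) and Pdgfc rising from 29 ± 5.04 to 85.2 ± 10.7 CPM (1.55 ± 0.12, adjusted p = 1.95e-06). Neither overlapped between the subsets. Igf1 rose from 2.7 ± 1.78 to 10.3 ± 3.59 CPM (1.93 ± 0.36). The progranulin gene Grn rose (0.77 ± 0.11, 1.80 on the deposited FPKM table), as did osteopontin Spp1 (0.83 ± 0.15, 0.33 there). Vegfa, the vessel growth factor, did not pass, at 236, 172, 279, 559 and 491 CPM against 265, 231, 303, 659 and 433 CPM (0.12 ± 0.34, adjusted p = 0.838). Its libraries 4 and 5 were above libraries 1 to 3 in both subsets. Tgfb1 did not pass either (-0.12 ± 0.11).

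Matrix and protease genes were higher in 15 of 29 cases and lower in 5. Timp2, an inhibitor of metalloproteinases, was at 399, 229.6, 347, 376 and 392 CPM in MHC-IIhi and 1093, 772, 889, 1061 and 1246 CPM in MHC-IIlo (1.54 ± 0.16, adjusted p = 1.91e-05), and the urokinase gene Plau rose by 1.35 ± 0.17. Mmp8 (1.30 ± 0.19) and Mmp9 (1.58 ± 0.33), collagenase and gelatinase of neutrophils and macrophages, rose. Neutrophil markers summed to 285 to 716 CPM in MHC-IIhi and 1050 to 2032 CPM in MHC-IIlo, and Mmp8 and Mmp9, which are among them, made up most of each sum. Of the 9 tested neutrophil markers 6 were higher and 0 lower by edgeR (0 lower at an unadjusted p under 0.05 and by DESeq2). S100a8 rose by 0.98 ± 0.15, S100a9 from 12.7 ± 2.84 to 27.3 ± 11 CPM and Csf3r, which encodes the G-CSF receptor, by 0.65 ± 0.12. The granule genes Camp, Ngp and Ltf and the surface marker Ly6g were below 1 CPM throughout. The part of neutrophils in the values of Mmp8 and Mmp9 was not tested. Fibronectin, Fn1, was among the most abundant transcripts and fell, from 18566, 22677, 15148, 15796 and 17762 CPM to 9448, 10802, 9582, 9761 and 6006 CPM (-0.98 ± 0.16, adjusted p = 0.000555). On the deposited FPKM table Fn1 had 1 value in all 10 libraries, so the difference there was 0. The collagen gene Col1a1 (1.83 ± 0.57, 2.46 to 17.5 CPM and 5.9 to 41.9 CPM) overlapped between the subsets and lost its call when any 1 of 5 libraries was left out and in limma voom. Summed fibroblast markers were 22.6 to 78.2 CPM in MHC-IIhi and 38.1 to 120.1 CPM in MHC-IIlo, and the part of such cells in the collagen values was not tested.

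Integrins fell in 7 of 17 cases and rose in 4. The β2 chain Itgb2 fell (-0.69 ± 0.08) and Itga9 rose from 44 ± 14.5 to 133 ± 26.9 CPM (1.59 ± 0.23). Cdh1, E-cadherin, known from epithelia and from some macrophages and dendritic cells, was at 449, 482, 383, 458 and 443 CPM in MHC-IIhi and 119, 155, 113, 112 and 74.8 CPM in MHC-IIlo (-1.95 ± 0.15). Krt8, the other tested gene of the epithelial and tumour list, was at 75.3, 108, 175, 54.7 and 63.6 CPM against 75.4, 131, 173, 57 and 63.3 CPM and did not pass (0.07 ± 0.35). The remaining markers Epcam, Krt18, Krt19, Krt7, Cldn4, Sftpc and Nkx2-1 were too low for the test.

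Of 21 glycolysis genes 4 were lower and 3 higher (median -0.09, 33.3% passed, near the 29.2% of all genes), and 1 was higher without MHC-IIhi library 1, MHC-IIhi library 3 or MHC-IIlo library 5. The phosphofructokinase Pfkp was at 524, 590.2, 524, 569 and 514 CPM in MHC-IIhi and 229.7, 264, 238, 248 and 201 CPM in MHC-IIlo (-1.20 ± 0.08, adjusted p = 4.77e-07), and the aldolase Aldoc at 63.1, 87.9, 80.4, 77 and 71.6 CPM against 19.8, 21.4, 19.1, 20.2 and 12.1 CPM (-2.04 ± 0.14, adjusted p = 5.47e-07). The glucose carrier Slc2a1 (-0.09 ± 0.14) and lactate dehydrogenase Ldha (-0.02 ± 0.09, 1683 ± 165 against 1664 ± 114 CPM) did not pass. Among 19 lactate and pyruvate genes 5 were higher and 4 lower (3 and 2 with all 30 libraries in the fit). The lactate-sensing receptor Gpr132 fell from 118 ± 25.5 to 56.8 ± 8.65 CPM (-1.06 ± 0.14), and the lactate exporter Slc16a3 fell by 0.38, with an adjusted p of 0.0939 with all 30 libraries in the fit.

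The TCA cycle had 9 of 24 genes lower and 3 higher (median -0.11). Idh3g, a subunit of isocitrate dehydrogenase, fell from 96.2 ± 4.48 to 65 ± 5.19 CPM (-0.56 ± 0.07), and citrate synthase Cs by 0.33. Acod1, which makes itaconate (listed as Irg1), rose by 0.94. Of 37 complex I genes 6 were lower and 2 higher (21.6% passed, against 29.2% of all genes), and 1 was higher without MHC-IIhi library 1, 2 or 4 or MHC-IIlo library 1, 2, 3 or 4. Of 21 genes of complexes III and IV 4 were lower and 0 higher (19% passed, against 29.2% of all genes), and 7 were lower without MHC-IIhi library 2. Of 15 ATP synthase genes 3 were lower and 0 higher by edgeR (20% passed, against 29.2% of all genes). DESeq2 called 6 of these lower, and 1 was lower without MHC-IIhi library 3, 4 or 5 or MHC-IIlo library 4, with all 30 libraries in the fit and without the filter on low counts. At an unadjusted p under 0.05 no gene of complexes III to V was higher. Of the 7 tested genes encoded in the mitochondrion 0 passed by edgeR, 0 had an unadjusted p under 0.05 and DESeq2 called 0, with differences of -0.23 to 0.07. Ndufa6 of complex I had the largest fall of its list (-0.69 ± 0.08).

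In the pentose phosphate route 6 of 13 genes were lower and 1 higher (3 lower with all 30 libraries in the fit). Transketolase Tkt was at 607, 680.1, 709.8, 756 and 688 CPM in MHC-IIhi and 374, 410.3, 382, 384 and 352 CPM in MHC-IIlo (-0.86 ± 0.07, adjusted p = 3.97e-06), with no overlap. Amino acid carriers were lower in 7 of 17 cases and higher in 4 (4 and 2 with all 30 libraries in the fit). The cystine carrier Slc7a11 fell from 120 ± 23.5 to 45.4 ± 12.5 CPM (-1.40 ± 0.19), the leucine carrier Slc7a5 by 1.28 and the glutamine carrier Slc1a5 by 1.06, while Slc7a8 rose by 0.95. The folate enzyme Mthfd2 fell by 0.98.

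Arginine is used by nitric oxide synthase and by arginase. Arg1 was at 1968, 1195, 2012, 2838 and 2237 CPM in MHC-IIhi and 3820, 3182, 4050, 4934 and 3586 CPM in MHC-IIlo (0.93 ± 0.19, adjusted p = 0.0026), although not past the threshold on the deposited FPKM table (0.69, adjusted p of 0.0712 to 0.102). There Arg1 had 4 distinct values in the 10 fresh libraries. Nos2 was at 33.4, 29.6, 21.5, 37.1 and 34.2 CPM against 21.6, 44.5, 26.1, 48.8 and 28.6 CPM (0.12 ± 0.22, adjusted p = 0.729), with overlapping libraries. Ass1, which remakes arginine from citrulline, dropped to 8.35 ± 1.47 CPM from 29.8 ± 5.03 CPM (-1.84 ± 0.15, adjusted p = 1.84e-06).

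Of 15 genes of purine signalling 7 were higher (3 with all 30 libraries in the fit) and 4 lower. The adenosine receptors Adora2a (-1.65 ± 0.34) and Adora3 (-1.61 ± 0.22) fell, Adora3 from 14.2 ± 1.84 to 4.66 ± 1.62 CPM. The nucleotide receptor P2ry14 fell (-1.13), and others rose, P2ry12 by 1.02 ± 0.16, P2rx4 by 0.63 ± 0.12 and P2rx7 by 0.87 ± 0.13, the last with an adjusted p of 0.0531 with all 30 libraries in the fit. In the eicosanoid routes the leukotriene B4 receptor Ltb4r1 fell from 269.8 ± 22.1 to 125 ± 13.5 CPM (-1.11 ± 0.09), Alox15, a lipoxygenase, was at 3.94 to 5.32 CPM against 0 to 0.596 CPM, and the prostaglandin D2 synthase Hpgds rose (1.46 ± 0.28).

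Interferon-stimulated genes were higher in 11 of 31 cases and lower in 3, and in 3 and 0 with all 30 libraries in the fit. Without MHC-IIhi library 5, 1 was lower. Oasl1 was at 42.2, 23.9, 44.2, 49.8 and 41.3 CPM in MHC-IIhi and 96, 72.8, 80.02, 89.1 and 86.2 CPM in MHC-IIlo (1.07 ± 0.16), and Rsad2, an antiviral enzyme, rose by 0.87 ± 0.18. Isg15 and Gbp2 did not pass (-0.21 and -0.04). Cell cycle genes were lower in 5 of 33 cases and higher in 1 (18.2% passed, against 29.2% of all genes). The higher count was 4 without MHC-IIhi library 3, 2 without MHC-IIlo library 2, 3 in limma voom and 0 with all 30 libraries in the fit. The 5 lower genes were the D cyclins Ccnd1, Ccnd2 and Ccnd3 and the kinase inhibitors Cdkn1a and Cdkn1b. The call of Ccnd1 was lost in 12 of 19 alternatives. Cyclin D2, Ccnd2, was at 185, 203, 177, 157 and 149 CPM against 52.7, 75.3, 74.3, 46.6 and 35.8 CPM (-1.61 ± 0.18), and Ccnd3 fell by 0.98. The proliferation marker Mki67 had 47, 50.5, 68.6, 30.3 and 41.8 CPM against 35.7, 62.9, 86, 42.4 and 52 CPM (0.23 ± 0.24, adjusted p = 0.534), which did not pass.

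Markers of other cells were followed in the same libraries. The macrophage list summed to 19841 to 26560 CPM in MHC-IIhi and 24018 to 29474 CPM in MHC-IIlo, with 8 of 12 members higher (4 with all 30 libraries in the fit) and 0 lower by edgeR, while 1 was lower at an unadjusted p under 0.05 and by DESeq2. With a replicate block 2 members were lower. Adgre1, which encodes F4/80, was at 212, 105, 174, 203 and 236 CPM against 574, 467, 500.4, 612 and 750.4 CPM (1.64 ± 0.19, adjusted p = 4.98e-05). Of the 6 genes shared by dendritic cells 5 were lower (Flt3, Zbtb46, Dpp4, Ciita and H2-DMb2, of which Ciita and H2-DMb2 are also on the class II list), and of the 8 tested genes of type 2 dendritic cells 6 were lower and 2 higher, Clec10a and Sirpa. Sirpa passed narrowly (adjusted p = 0.0495), and 1 was higher with RLE size factors, without the filter on low counts, with all 30 libraries in the fit, and without MHC-IIhi library 1, 2 or 3 or MHC-IIlo library 1, 4 or 5. Of the shared genes, 2 passed the filter on low values of the deposited FPKM table, and both were lower. Xcr1 and Clec9a, which define type 1 dendritic cells, were below 1 CPM in all libraries, and the list for that type summed to 181 to 253 CPM and 119 to 140.2 CPM. Wdfy4 made up most of those sums (156 to 223 CPM in MHC-IIhi and 95.4 to 114 CPM in MHC-IIlo). The shared list summed to 265 to 417 CPM in MHC-IIhi and 12.9 to 22.8 CPM in MHC-IIlo. Most of each sum came from Ciita (170 to 289 CPM in MHC-IIhi) and H2-DMb2 (82.2 to 111 CPM). Both are class II pathway genes, so this sum is not independent of the sort. Flt3, Zbtb46, Dpp4 and Kit were each at 7.03 CPM or less in every library. Of 10 tested genes of mature dendritic cells 4 were lower (Ccl17, Ccl22, Ccr7 and Socs2) and 0 higher by edgeR (0 at an unadjusted p under 0.05, 1 with a replicate block). That is 40%, against 29.2% of all genes. Cd83 did not pass (0.39 ± 0.44), although every MHC-IIlo library was above the MHC-IIhi library of the same number. It was at 98.2, 57.7, 123, 272 and 251 CPM against 141, 101, 136, 379 and 292 CPM. Of 7 tested type 1 genes 4 were lower and 1 higher (0 higher with all 30 libraries in the fit). The part of dendritic cells in the falls of Ccl17, Ccr7, Irf4 and the class II genes was not tested. T and NK cell markers summed to 12.4 to 18.9 CPM in MHC-IIhi and 3.46 to 9.13 CPM in MHC-IIlo. B cell markers summed to 16.3 to 47.9 CPM and 3.93 to 13.2 CPM, with Cd79a, Ms4a1, Jchain and Ebf1 too low for the test. The monocyte list had 4 of 10 members lower (2 with all 30 libraries in the fit) and 1 higher, and Ly6c2 did not pass (-0.51 ± 0.28).

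**Figure D4:**
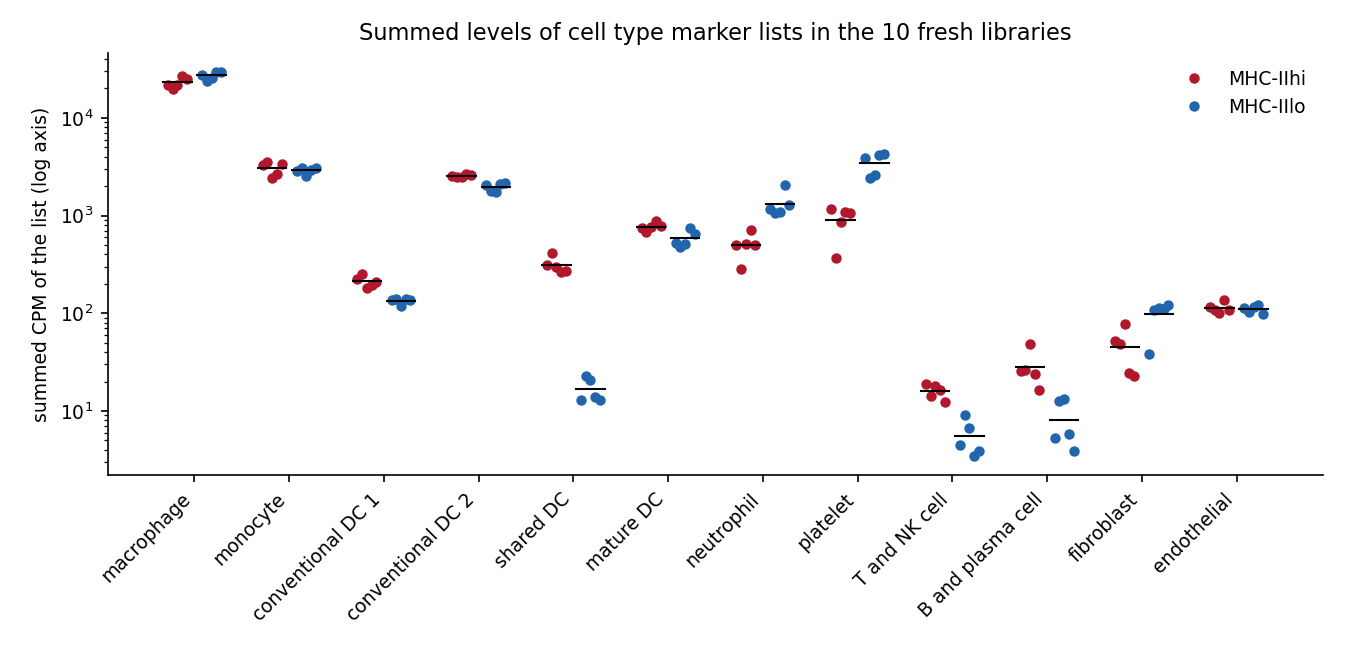
Summed CPM of 12 cell type marker lists on a log axis in each fresh library, red for the 5 MHC-IIhi and blue for the 5 MHC-IIlo libraries, with a black line at the mean. The macrophage list lies highest in both subsets, the shared dendritic cell list is lower in every MHC-IIlo library, and the neutrophil and platelet lists are higher there. Most of the shared dendritic cell sum is Ciita and H2-DMb2, most of the neutrophil sum Mmp8 and Mmp9, and nearly all of the platelet sum Pf4 and Ppbp. Wdfy4 makes up most of the sum for type 1 dendritic cells.

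The last comparison asks whether the subset difference seen straight from the tumour held after 24 h in culture without lactate. Of 13682 genes tested for the difference of the differences, 1957 passed (14.3%), 1132 with a higher value in fresh cells (8.27%) and 825 with a lower one (6.03%, or 490 genes with all 30 libraries in the fit). A positive change means that MHC-IIlo stood higher against MHC-IIhi in fresh than in cultured cells. Of the 3737 genes that passed in fresh cells, 1084 also passed here, and 233 of them passed with the opposite sign in the cultured cells. Fresh and cultured libraries differ also in cell number and lysis, and these cannot be told apart from culture.

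The class II chains differed after culture too, with H2-Ab1 at a log2 fold change of -5.25 and Ciita at -4.33 in cultured cells, and the test of the change did not pass for either (adjusted p = 0.521 and 0.349). Cxcl3 had the largest change of the genes named by the rule. It was at 279.6 ± 113 CPM in fresh MHC-IIhi and 811 ± 243 CPM in fresh MHC-IIlo, and at 841 ± 206 and 97.7 ± 35.2 CPM in cultured MHC-IIhi and MHC-IIlo, so that the sign of its subset difference turned (change 4.64 ± 0.43, adjusted p = 4.79e-07). Il1b, which encodes IL-1β, was already lower in fresh MHC-IIlo and had a larger difference after culture, at 269 ± 122 against 5.05 ± 2.46 CPM (change 4.47 ± 0.48, adjusted p = 2.30e-06). Its fresh difference (-1.26 ± 0.23) had an adjusted p of 0.0949 with all 30 libraries in the fit.

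Arg1, higher in fresh MHC-IIlo, was lower in cultured MHC-IIlo, at 1594 ± 444 against 323 ± 124 CPM (change 3.24 ± 0.37, adjusted p = 4.94e-06). Nos2, with no fresh difference past the threshold, was at 1550 ± 383 against 206 ± 60.2 CPM in cultured cells (change 3.04 ± 0.34, adjusted p = 3.23e-06). Vegfa behaved in the same way, at 147 ± 37.8 against 47 ± 8.94 CPM after culture (change 1.77 ± 0.44, adjusted p = 0.00827). Fpr1, the receptor for formyl peptides (3.59 ± 0.40), Cd38, an enzyme that consumes NAD (3.49 ± 0.39), and Ddit4, an inhibitor of mTORC1 (2.79 ± 0.36), completed the 6 largest changes in that direction with Cxcl3, Il1b and Arg1.

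These were ranked among genes that passed both tests and had at least 5 average log2 CPM. In the other direction the largest change under that limit was that of Egr2, a transcription factor, which was lower in fresh MHC-IIlo (-1.12) and higher after culture (1.13, change -2.25 ± 0.35). Ifitm6 (-2.15 ± 0.43) and the kinase Matk (-1.80 ± 0.26) were lower in fresh MHC-IIlo and low in both cultured subsets, Matk at 2.62 ± 0.77 and 3.17 ± 0.992 CPM. Lpl turned from -1.26 to 0.83 (change -2.08 ± 0.30, adjusted p of 0.0683 with all 30 libraries in the fit), and Tmem154 from -1.28 to 0.63 (change -1.91 ± 0.24). For Fam198b the sign did not turn, with 0.34 in fresh and 2.21 in cultured cells (change -1.86 ± 0.24), and its fresh call was lost in 10 of 19 alternatives.

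**Figure D5:**
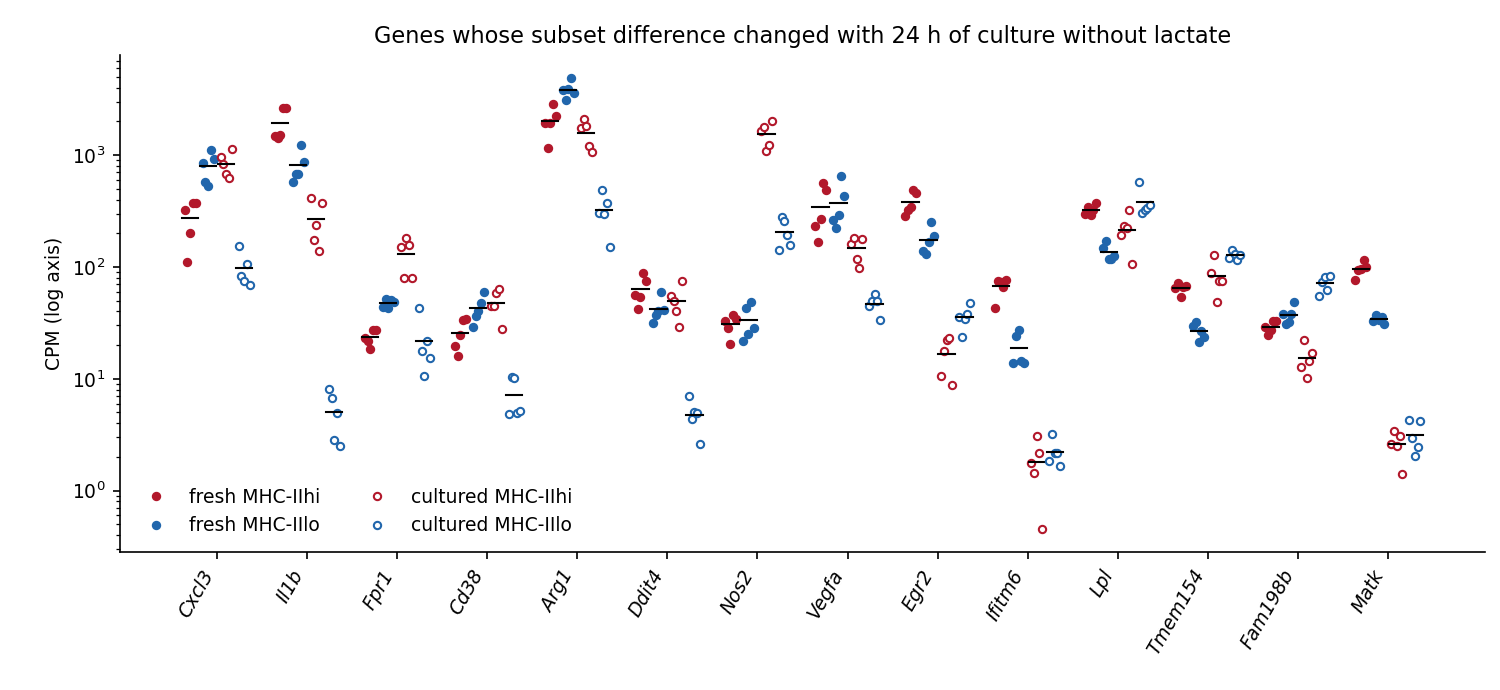
CPM on a log axis of 14 genes in the 10 fresh (filled) and 10 cultured (open) libraries without lactate, red for MHC-IIhi and blue for MHC-IIlo, with a black line at the mean of each 5. Cxcl3 and Arg1 are higher in MHC-IIlo when fresh and lower when cultured, and Nos2 separates the subsets after culture.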

How the data were processed

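RNA was sequenced from 10 libraries of freshly sorted tumour macrophages, 5 per subset, and 10 cultured libraries without lactate entered 1 comparison. The alternative fit of all 30 libraries also held the 10 cultured with lactate. Per the labels' protocols RNA came from the RNeasy Plus Micro kit and was sequenced on a NextSeq. Per the submitters' processing notes the tools were Trimmomatic, STAR and featureCounts on GRCm38, with versions not given in the sources used here. The authors deposited raw counts for 46603 genes and FPKM values for 13778 genes. The deposited FPKM values times gene length have the same sorted values in all 30 columns, as quantile normalization gives. Groups came from the sample labels, and 0 value columns lacked a sample.

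The counts were tested with edgeR 4.0.16 in R 4.3.3 (TMM, filterByExpr, quasi-likelihood F test, Benjamini-Hochberg adjustment over all 12787 genes, threshold 0.05), and 126 gene IDs share a symbol with another. The SE is the log2 fold change over the square root of F. The difference of subset differences was an interaction term over 20 libraries. The script was tested on simulated data. The alternatives used DESeq2 1.42.0, size factors by RLE, all genes with no count filter, limma 3.58.1 (voom, and log2(FPKM + 1) or log2(FPKM + 0.1) for genes with an FPKM of at least 1 in 5 libraries), all 30 libraries in 1 fit, a replicate block and each library left out. Named genes were the class II genes of the sort check and the 12 largest rises and falls without overlap and with a mean log2 CPM of 5 or more (antigen receptor, ribosomal protein, mitochondrial and predicted genes were skipped). They also included up to 3 members per direction of each of 51 lists (946 members), the 6 largest interactions per direction among genes past both tests with the same mean level, and Arg1, Mrc1, Il1b, Nos2 and Vegfa. Genes named outside this rule, chosen after their values were seen, serve as members that did not pass or as examples. The members and lists were chosen with earlier results of these data known. Some members of the lists are not reported here by name.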

Additional observations from a re-analysis of the deposited data

Results flagged for a closer look

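Of 116 groups of 5 libraries examined for 1 library far from the other 4, 8 stood out, where chance gives 5.8. In MHC-IIhi library 2, Ppbp was at 90.34 CPM against 284.6 to 357.7 CPM in the other 4, Cbr2 at 90.06 CPM against 192.1 to 227.6 CPM, and Rcn3 at 12.55 CPM against 27.03 to 31.02 CPM. Ccl17 was at 110.4 CPM in MHC-IIhi library 5 against 176.3 to 200.1 CPM. H2-DMb2 was at 9.232 CPM in MHC-IIlo library 2 against 6.01 to 6.273 CPM. The summed markers of type 1 dendritic cells, mostly Wdfy4, were at 119.2 CPM in MHC-IIlo library 3 (136.4 to 140.2 CPM in the others). Neutrophil markers were at 2032 CPM in MHC-IIlo library 4 (1050 to 1280 CPM), and fibroblast markers at 38.06 CPM in MHC-IIlo library 1 (108.7 to 120.1 CPM).

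The subset difference changed between fresh and cultured cells, by edgeR's interaction test, for 19 of the genes examined. The change (fresh minus cultured, log2) was 4.64 for Cxcl3, 4.47 for Il1b, 3.59 for Fpr1, 3.49 for Cd38, 3.24 for Arg1, 3.04 for Nos2, 2.79 for Ddit4 and 1.77 for Vegfa. It was -2.25 for Egr2, -2.15 for Ifitm6, -2.08 for Lpl, -1.91 for Tmem154, -1.86 for Fam198b and -1.8 for Matk. Among the largest fresh differences it was 1.1 for Ms4a7, -1.24 for Cbr2 (adjusted p = 0.119 when all 30 libraries were fitted), -1.56 for Il1r2, -1.65 for H2-DMb1 and -1.02 for Itgax.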

How the results depend on the processing

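Leaving aside the replicate block, the counts of genes higher and lower in fresh MHC-IIlo ranged from 1446 and 1482 with all 30 libraries in the fit to 2036 with DESeq2 for higher and 2052 with limma voom for lower. With each library left out in turn, they ranged from 1506 to 1857 higher and 1565 to 1885 lower. Those of the fresh against cultured test ranged from 970 to 1195 higher and 658 to 863 lower. With all 30 libraries in the fit, 490 genes were lower in that test in place of 825, and the cause was not tested. Of the 3737 called genes, 3690 were called by DESeq2, 3613 by limma voom, 2657 with all 30 libraries in the fit and 2926 on log2(FPKM + 1). Signs were compared for the named genes only, and among these the sign of 3 turned on the deposited FPKM values. Under a pseudocount of 1, of 0.1, and of 1 without a filter, Ctss was at -0.3841, -0.3842 and -0.3841, Canx at -0.1846, -0.186 and -0.1846, and Fcgr2b at -0.3118, -0.3127 and -0.3118, and the cause was not tested. There the 4 top-ranked genes (Psap, Lyz2, Actb and Fn1) had 1 value in all 10 fresh columns, so Fn1 could not differ. Mrc1 and Ctss had 2 distinct values and Arg1 had 4, so that table holds little of their spread between libraries. The replicate numbers are shared by the subsets, and same-numbered libraries correlated in their deviations at 0.07, 0.327, 0.497, 0.324 and 0.272 for numbers 1 to 5. As 1 was under 0.1, the limit set for pairing, they were not taken as pairs, although 4 of 5 correlated best with their own number. With a replicate block 2423 genes were higher and 2581 lower, and 3729 of the 3737 called genes were called again. A gene given above as not passing did not pass in the fit without a block, and may pass with it. Under that block 8 Toll-like and NOD-like receptor genes were lower in place of 3 (9 higher in both fits), 8 glycolysis genes lower in place of 4, 6 ATP synthase genes lower in place of 3, 8 genes of complexes III and IV lower in place of 4, 6 fatty acid synthesis genes lower in place of 3, 5 cell cycle genes higher in place of 1, 11 lineage transcription factors higher in place of 5, 10 CXC genes higher in place of 5, 6 class I genes higher in place of 3 and 8 lactate and pyruvate genes higher in place of 5.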

Other observations

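Further genes, chosen after their values were seen and given as a description, had large differences. Receptors for the fusion of macrophages and osteoclasts were lower in MHC-IIlo, Dcstamp at 2.23 to 3.98 CPM against 42 to 56 CPM in MHC-IIhi and Ocstamp at 0.531 to 1.99 CPM against 25.6 to 38.4 CPM. Of 4 tested genes of kynurenine metabolism, which breaks down tryptophan, 3 were lower. Kmo, which is also on the list of type 2 dendritic cells and counted there, was at 1.79 to 2.93 CPM against 15.6 to 26.5 CPM. Haao was at 1.75 to 2.73 CPM against 11.4 to 18.3 CPM. Plet1 was at 0.298 to 0.986 CPM against 41.6 to 74 CPM, and Klrb1b at 0.266 to 1.2 CPM against 42.9 to 67.1 CPM. Genes known from perivascular macrophages were higher, such as the folate receptor Folr2 at 372 to 606 CPM against 75.6 to 197 CPM and the hyaluronan receptor Lyve1 at 23.4 to 64 CPM against 7.73 to 17.8 CPM. In each of these genes the subsets did not overlap.

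The second principal component ordered libraries across both subsets. Nfkbiz, a regulator in NF-κB signalling, was at 93.6, 44.6, 66, 199 and 234 CPM in MHC-IIhi libraries 1 to 5 and at 104, 39.8, 89.1, 237 and 286 CPM in MHC-IIlo libraries 1 to 5. Col4a1, a basement membrane collagen, was at 32.9, 33.0, 48.4, 9.56 and 21.8 CPM and at 26.8, 47.8, 123.7, 25.98 and 21.7 CPM. Nfkbiz was highest in libraries 4 and 5 of both subsets, and neither gene passed the test between subsets. What sets these libraries apart was not tested.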
